A study of Mus musculus with 12 samples.

Results

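The genes described here are 9 Wnt-dependent genes of the hepatocytes that surround the central vein of the liver lobule: Glul, Oat, Slc1a2, Rhbg, Axin2, Lgr5, Rnf43, Tbx3 and Lect2. They were taken by symbol from a count table of 27022 mouse genes, in which each was present under its Ensembl identifier. The table held liver RNA from 6 female SJL/J mice, each prepared with 2 library kits, giving 12 libraries. All mice were first kept on an AIN-93G control diet with 50 ppm iron. At 6 weeks of age 1 cage was moved to the AIN-93G diet with 2% carbonyl iron (the iron-loaded group), and all livers were taken at 11 weeks after a fast and after perfusion with saline. Trad-KAPA is the stranded whole-transcript kit, whose reads fall along the transcript, and 3'-LEXO is the Lexogen kit, whose reads fall near its 3' end. Of each diet 3 mice were used, and since each diet was fed to 1 cage, diet and cage cannot be told apart.

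Hepatocytes are specialized by their place in the lobule. Endothelial cells of the central vein release Wnt ligands and R-spondins, which stabilize beta-catenin in the neighboring hepatocytes, and beta-catenin with its TCF partners turns on the pericentral program. This program is best known for the capture of ammonia as glutamine, and it also includes feedback regulators that tune how strongly a cell responds to Wnt. Because the RNA came from whole liver, fewer pericentral cells and less RNA per cell cannot be told apart.

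The upstream sequence of the genes was read from the RefSeq promoter table for GRCm38.p6, which matched 6 of the 9 genes (Glul, Oat, Slc1a2, Axin2, Rnf43 and Lect2). The letters CTTTGA, the core bound by TCF and LEF factors, and their reverse complement TCAAAG were searched in the 250 bases before each start. Of all 32851 promoters in the table, 13.8% held either. Among the 6 genes, Slc1a2 held TCAAAG 206 bases and CTTTGA 77 bases before its start, and Lect2 held TCAAAG 31 bases before its start. The Slc1a2 start in this table lies inside the longer gene model. The windows of Glul, Oat, Axin2 and Rnf43 (2 starts) did not hold these letters. The full windows of Oat and Glul are shown because Oat was the gene that changed with diet and Glul the most abundant gene that did not pass the test. The stretches around the matches in Slc1a2 and Lect2 are shown with the matched letters in capitals. Each is written 5′ to 3′ on the strand of the gene, at chr7:132576399-132576648 (minus strand) for Oat, chr1:153899679-153899928 (plus strand) for Glul, chr2:102706205-102706264 and chr2:102706334-102706393 (plus strand) for Slc1a2, and chr13:56548539-56548598 (minus strand) for Lect2.
Oat: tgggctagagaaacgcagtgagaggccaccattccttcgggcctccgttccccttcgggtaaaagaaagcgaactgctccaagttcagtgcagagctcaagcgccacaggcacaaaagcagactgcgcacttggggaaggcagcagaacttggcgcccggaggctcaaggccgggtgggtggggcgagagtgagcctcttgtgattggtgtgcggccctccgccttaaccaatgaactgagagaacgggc
Glul: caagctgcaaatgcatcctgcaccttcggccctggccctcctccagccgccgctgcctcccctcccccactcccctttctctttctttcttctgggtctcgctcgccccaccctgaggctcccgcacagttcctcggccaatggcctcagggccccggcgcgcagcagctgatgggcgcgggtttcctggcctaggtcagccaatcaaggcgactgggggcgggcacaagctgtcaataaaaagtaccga
Slc1a2, first match: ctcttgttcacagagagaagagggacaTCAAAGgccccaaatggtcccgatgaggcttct
Slc1a2, second match: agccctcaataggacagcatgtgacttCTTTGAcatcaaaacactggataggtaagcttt
Lect2: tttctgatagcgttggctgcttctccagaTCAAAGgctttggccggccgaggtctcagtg

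Library totals ran from 13834682 to 16553616 counts for Trad-KAPA and from 10724672 to 14104236 for 3'-LEXO. The hepatocyte markers Alb, Apoa1, Ttr, Serpina1c, Hnf4a and Cebpa were present in every library. Hamp, which encodes the iron hormone hepcidin, served as a check of the diets. In Trad-KAPA it stood at 515, 44.0 and 83.2 CPM (counts per 1000000 of the library total) in control mice 1 to 3 and at 1326, 1026 and 1070 CPM in the iron-loaded mice, with no overlap. The diets did not overlap in that kit for 41.2% of all genes tested. The edgeR test did not call Hamp there, as given with the periportal genes below. Control mouse 1 was the highest control for Hamp in both kits. Libraries were compared within each group by the chi-square statistic per degree of freedom over genes, where sampling noise alone gives about 1. Iron-loaded mice 2 and 3 were the most alike pair, at 5.98 with Trad-KAPA and 5.97 with 3'-LEXO. All other pairs within a group lay between 18.5 and 59.8, and the highest values were those of iron-loaded mouse 1 against mouse 2. No pair lay within sampling noise, and the 6 mice were kept as the labels number them. Libraries made again from the same animal can also differ by more than sampling noise, so these values do not show whether iron-loaded mice 2 and 3 were separate animals.

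Oat was the only 1 of the 9 genes to pass the test of diet, and it fell in both kits, by 3.12-fold and 3.07-fold. Oat (ENSMUSG00000030934, chr7:132557478-132576398, minus strand in GRCm38) encodes ornithine aminotransferase, the mitochondrial enzyme that converts ornithine toward glutamate. In Trad-KAPA it stood at 500, 341 and 567 CPM in the control mice and at 184, 147 and 146 CPM in the iron-loaded mice. In 3'-LEXO it stood at 378, 332 and 431 CPM in the control mice and at 167, 112 and 111 CPM in the iron-loaded mice. Every iron-loaded mouse was below every control mouse in both kits, and iron-loaded mouse 1 was the highest of its group. The log2 fold change was -1.64 ± 0.20 (SE, 3 mice per diet) in Trad-KAPA, 3.12-fold lower, with an adjusted p of 0.00365 by edgeR's quasi-likelihood test. In 3'-LEXO it was -1.62 ± 0.20 (SE), 3.07-fold lower, with an adjusted p of 0.00307 by the same test. Both calls held without any 1 library, and with iron-loaded mice 2 and 3 summed to 1 sample, at -1.59 (adjusted p = 0.0159) and -1.55 (adjusted p = 0.0125, edgeR). Across all genes tested, 8.37% were called lower by Trad-KAPA and 2.92% by 3'-LEXO, and 8.77% and 3.17% were called higher. With 9 genes, 1 call is 11.1%, and none of the 9 was called higher in either kit.

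**Figure D1:**
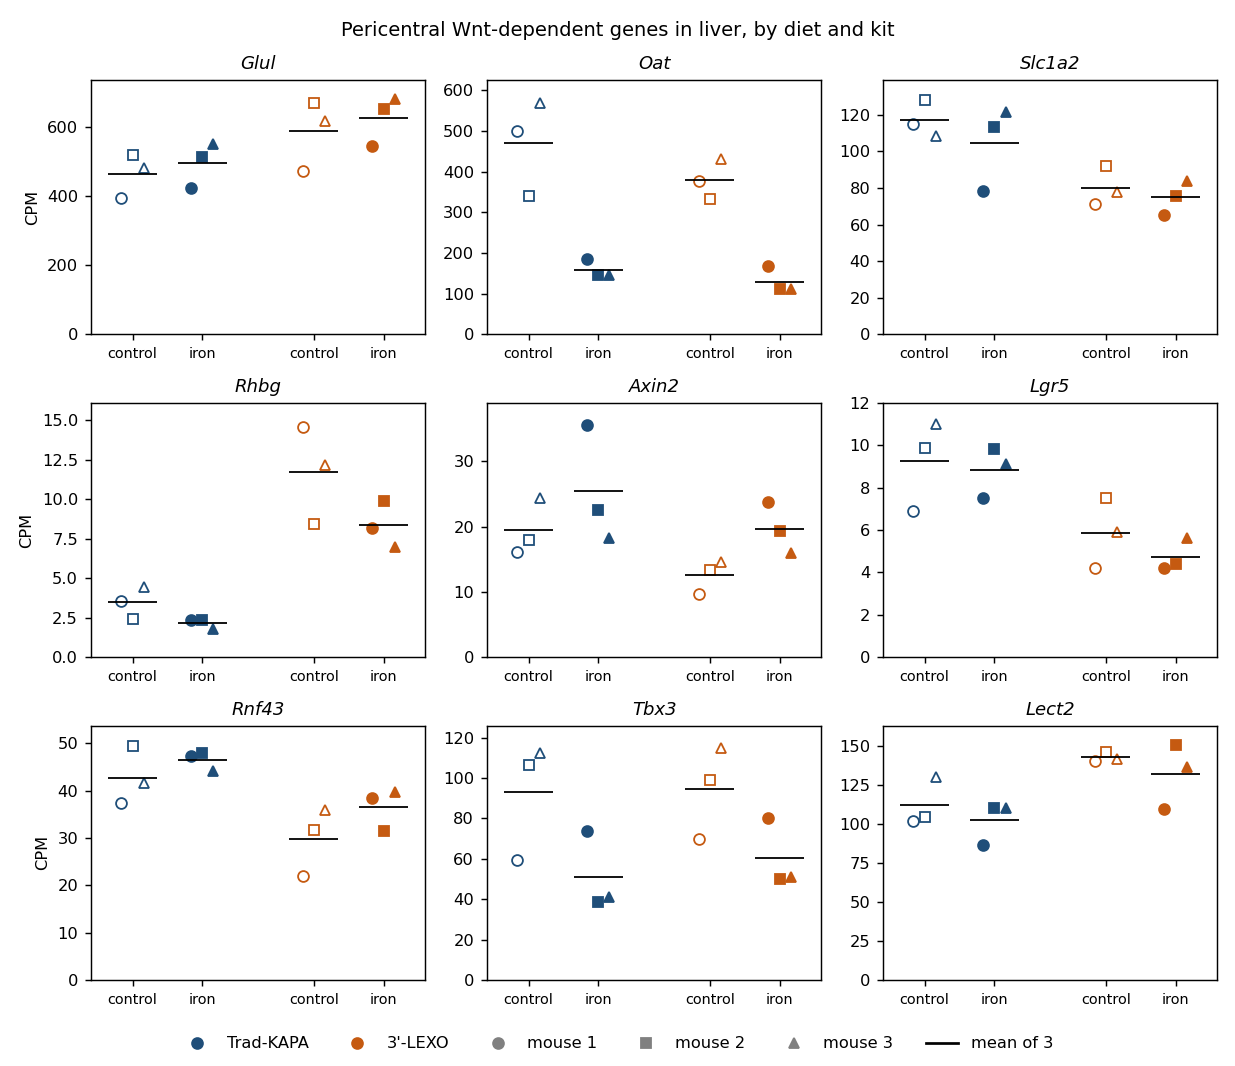
CPM (linear axis from 0) for the 9 genes, with 1 panel per gene, open symbols for control and filled for iron-loaded mice, the symbol shape for the mouse and bars for the mean of 3. Oat is separated by diet in both kits, while the diets overlap for Glul, Slc1a2, Lgr5, Rnf43, Tbx3 and Lect2 in both kits.

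The other 3 genes of ammonia and glutamate handling did not pass the test. Glul (ENSMUSG00000026473, chr1:153899944-153909723, plus strand) encodes glutamine synthetase, the enzyme that joins ammonia to glutamate. It stood at 393, 518 and 480 CPM in the control mice and at 422, 513 and 551 CPM in the iron-loaded mice in Trad-KAPA. In 3'-LEXO the values were 474, 670 and 616 CPM in the control mice and 545, 651 and 680 CPM in the iron-loaded mice. The diets overlapped, and mouse 1 was the lowest of its group on both diets and in both kits. The log2 fold change of Glul was 0.03 in Trad-KAPA (95% confidence interval -0.35 to 0.41, adjusted p = 0.926, edgeR). In 3'-LEXO it was 0.04 (95% confidence interval -0.38 to 0.46, adjusted p = 0.925, edgeR). A change of Glul as large as that of Oat lay outside both intervals.

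Slc1a2 encodes a glutamate transporter of the plasma membrane. It stood at 115, 128 and 108 CPM in the control mice and at 78.5, 113 and 122 CPM in the iron-loaded mice in Trad-KAPA. In 3'-LEXO the values were 71.0, 91.7 and 78.0 CPM on the control diet and 65.3, 75.6 and 84.0 CPM on the iron-loaded diet. Iron-loaded mouse 1 was the lowest of the 6 mice in both kits, and the other iron-loaded mice lay within the control range. The log2 fold changes were -0.22 ± 0.18 and -0.15 ± 0.16 (SE), with adjusted p of 0.407 and 0.594 by edgeR in Trad-KAPA and 3'-LEXO.

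Rhbg encodes an ammonium transporter of the Rhesus family and was among the least expressed of the 9 genes. It had 59, 36 and 62 counts in the control libraries and 33, 35 and 25 counts in the iron-loaded libraries of Trad-KAPA, or 3.56, 2.41 and 4.48 CPM against 2.36, 2.39 and 1.80 CPM. In 3'-LEXO it had 204, 118 and 172 counts against 107, 106 and 77 counts, or 14.6, 8.44 and 12.2 CPM against 8.21, 9.88 and 7.0 CPM. In Trad-KAPA the diets did not overlap, but the gap between control mouse 2 and iron-loaded mouse 2 was 1 count. In 3'-LEXO they overlapped. The log2 fold changes were -0.74 ± 0.29 and -0.55 ± 0.24 (SE), with adjusted p of 0.107 and 0.187 by edgeR, so that neither kit called the gene. Gm38392, a protein-coding gene model on the same strand, overlaps the exons of Rhbg, and how reads there were assigned is not given in the sources used here.

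**Figure D2:**
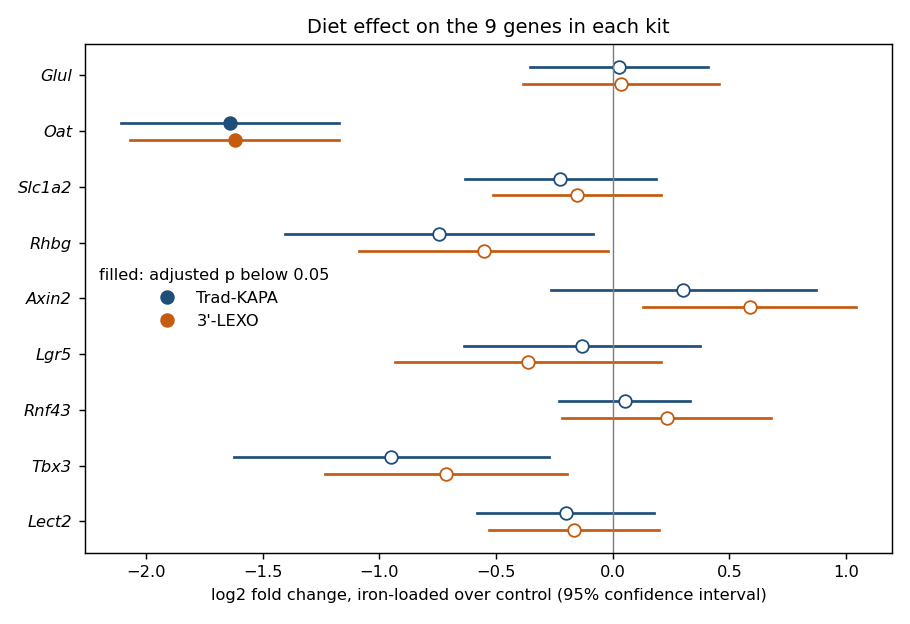
Log2 fold change of iron-loaded over control mice with its 95% confidence interval for each of the 9 genes in each kit (3 mice per diet), filled where the adjusted p was below 0.05. Oat is the filled gene in both kits, at -1.64 and -1.62, and the intervals of Glul lie within 0.46 of 0.

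The feedback and stem cell genes did not move in 1 direction. Axin2 encodes a scaffold of the complex that degrades beta-catenin and is widely used as a readout of Wnt signaling. It stood at 16.2, 18.0 and 24.4 CPM in the control mice and at 35.5, 22.6 and 18.3 CPM in the iron-loaded mice in Trad-KAPA, where the diets overlapped. In 3'-LEXO it stood at 9.72, 13.3 and 14.6 CPM against 23.7, 19.4 and 16 CPM, where they did not. Iron-loaded mouse 1 had the highest value in both kits. The log2 fold change was 0.30 ± 0.25 (SE, adjusted p = 0.421) in Trad-KAPA and 0.59 ± 0.20 (SE, adjusted p = 0.112) in 3'-LEXO by edgeR, so that neither kit called it. Across all genes tested, the diets did not overlap in CPM for 41.2% of genes with Trad-KAPA and 31.3% with 3'-LEXO, against 2 of the 9 genes in each kit (Oat and Rhbg, and Oat and Axin2).

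Lgr5 encodes a receptor for R-spondins and marks stem cells of several tissues. It had 105 to 152 counts in Trad-KAPA and 47 to 105 counts in 3'-LEXO. In Trad-KAPA its values were 6.89, 9.85 and 11.0 CPM on the control diet and 7.5, 9.84 and 9.13 CPM on the iron-loaded diet. In 3'-LEXO they were 4.22, 7.51 and 5.88 CPM against 4.22, 4.38 and 5.64 CPM. The diets overlapped in both kits, and the log2 fold changes were -0.13 ± 0.22 and -0.36 ± 0.26 (SE), with adjusted p of 0.706 and 0.408 by edgeR.

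Rnf43 encodes a ubiquitin ligase that removes Frizzled receptors from the cell surface and so dampens the Wnt response. Its Trad-KAPA values were 37.4, 49.4 and 41.6 CPM on the control diet and 47.3, 48.0 and 44.1 CPM on the iron-loaded diet. In 3'-LEXO they were 21.9, 31.7 and 35.9 CPM against 38.6, 31.4 and 39.8 CPM. The diets overlapped in both kits, and the log2 fold changes were 0.05 ± 0.12 and 0.23 ± 0.20 (SE), with adjusted p of 0.801 and 0.507 by edgeR.

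Tbx3, a transcription factor of the T-box family, was the gene whose call depended on how it was tested. It stood at 59.7, 106 and 113 CPM in the control mice and at 73.7, 38.7 and 41.1 CPM in the iron-loaded mice in Trad-KAPA. In 3'-LEXO the values were 69.7, 98.8 and 115 CPM against 80.4, 50.0 and 50.8 CPM. In both kits iron-loaded mouse 1 lay above control mouse 1, while iron-loaded mice 2 and 3 lay below all controls. The log2 fold change was -0.95 ± 0.30 (SE, adjusted p = 0.0592) in Trad-KAPA by edgeR, just short of the threshold of 0.05. In 3'-LEXO it was -0.72 ± 0.23 (SE, adjusted p = 0.0943, edgeR), so that neither kit called it. DESeq2 gave adjusted p of 0.00816 and 0.0411 for the same libraries. Without iron-loaded mouse 1, edgeR gave -1.26 (adjusted p = 0.011) in Trad-KAPA and -0.95 (adjusted p = 0.0216) in 3'-LEXO, and without control mouse 1 it gave -1.20 (adjusted p = 0.0367) in Trad-KAPA. Tbx3 was not called in the other fits with 1 library left out. Its weakest changes there were -0.75 in Trad-KAPA (adjusted p = 0.183) and -0.52 in 3'-LEXO, with adjusted p up to 0.266 (edgeR). With iron-loaded mice 2 and 3 summed, Trad-KAPA gave -0.81 (adjusted p = 0.144, edgeR). The antisense gene Tbx3os1 overlaps Tbx3. Whether counting used strand is not given in the sources used here, so reads of the gene and its antisense partner may not be separated, and the same holds for Axin2 with Gm11670 and for Slc1a2 with Gm13872.

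Lect2 encodes a secreted hepatokine. It stood at 102, 105 and 130 CPM in the control mice and at 86.8, 110 and 110 CPM in the iron-loaded mice in Trad-KAPA. In 3'-LEXO the values were 141, 146 and 142 CPM against 110, 151 and 137 CPM. Iron-loaded mouse 1 was the lowest of the 6 mice in both kits, and the diets overlapped. The log2 fold changes were -0.20 ± 0.17 and -0.17 ± 0.16 (SE), with adjusted p of 0.424 and 0.562 by edgeR. Over the 9 genes the median log2 fold change was -0.20 by Trad-KAPA and -0.17 by 3'-LEXO, against 0.02 and 0.01 over all genes tested.

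The same 6 RNAs were in both kits, so the diet effect could be compared between kits in a fit to all 12 libraries. None of the 9 genes had a called difference of its diet effect by edgeR's quasi-likelihood test. The adjusted p was 1.0 for each, and 0 of 9 had an unadjusted p under 0.05. Over all 14384 genes 0.0% were called, 402 had an unadjusted p under 0.05, DESeq2 also called 0, and the fit with the mouse as a block called 5. For Oat the difference of 3'-LEXO minus Trad-KAPA was 0.02 on the log2 scale (95% confidence interval -0.62 to 0.66). For Glul it was 0.01 (95% confidence interval -0.53 to 0.55), and for Axin2, the largest of the 9, it was 0.29 (95% confidence interval -0.46 to 1.03). That fit did not use the fact that each mouse was measured with both kits. With the mouse as a block the 95% confidence intervals were -0.28 to 0.24 for Oat, -0.21 to 0.24 for Glul and -0.04 to 0.64 for Axin2, and none of the 9 genes was called (adjusted p from 0.733 to 0.996, edgeR).

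The levels of the genes spanned more than 100-fold. They were compared per length in Trad-KAPA, as TPM (counts per kilobase of merged exons, scaled to the same total in each library), and as CPM in 3'-LEXO, where a transcript gives reads near 1 end whatever its length. Over the 6 mice of both diets Glul had the highest mean in both kits, at 378 ± 49.2 TPM (SD, n = 6 mice) by Trad-KAPA and 606 ± 81.3 CPM by 3'-LEXO. Oat (346 TPM, range 162 to 617 TPM, and 255 ± 142 CPM) and Lect2 (305 ± 37.3 TPM, 138 ± 14.6 CPM) followed in both. The ranges of these 3 genes overlapped in Trad-KAPA, and in 3'-LEXO Glul lay above Oat without overlap. The order of these 3 depended on the diet. In the control mice Oat was highest in Trad-KAPA, at 512 ± 126 TPM (SD, n = 3 mice) against 360 ± 48.7 TPM for Glul, with overlapping ranges. In the iron-loaded mice Trad-KAPA gave Oat 179 ± 26.5 TPM, below Lect2 at 296 ± 37.2 TPM without overlap. By 3'-LEXO the 2 genes had means of 130 CPM for Oat and 132 CPM for Lect2 in these mice, with overlapping ranges. Tbx3 (28.4 ± 12.2 TPM) and Slc1a2 (22.1 ± 3.30 TPM) came next in Trad-KAPA and in the opposite order in 3'-LEXO, at 77.4 ± 26.1 and 77.6 ± 9.38 CPM, with overlapping ranges in both. By diet, Tbx3 had the higher mean of the pair in control mice and Slc1a2 in iron-loaded mice, in both kits, with overlapping ranges each time. Rnf43, Axin2, Rhbg and Lgr5 followed in that order in both kits and both diets. The Trad-KAPA order of Rhbg and Lgr5 may depend on the length used. Lgr5 has 10264 bp of merged exons but 4793 bp in its longest transcript, against 1937 bp by either length for Rhbg. Rnf43 stood at 17.8 ± 1.90 TPM and 33.2 ± 6.52 CPM, and Axin2 at 10.7 ± 3.52 TPM and 16.1 ± 4.89 CPM. Rhbg stood at 3.81 ± 1.28 TPM and 10.1 ± 2.84 CPM, and Lgr5, the lowest, at 2.30 ± 0.38 TPM and 5.31 ± 1.31 CPM. The ranges of Rnf43 and Axin2 overlapped in both kits, as did those of Rhbg and Lgr5, and those of Axin2 and Rhbg overlapped in 3'-LEXO only.

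**Figure D3:**
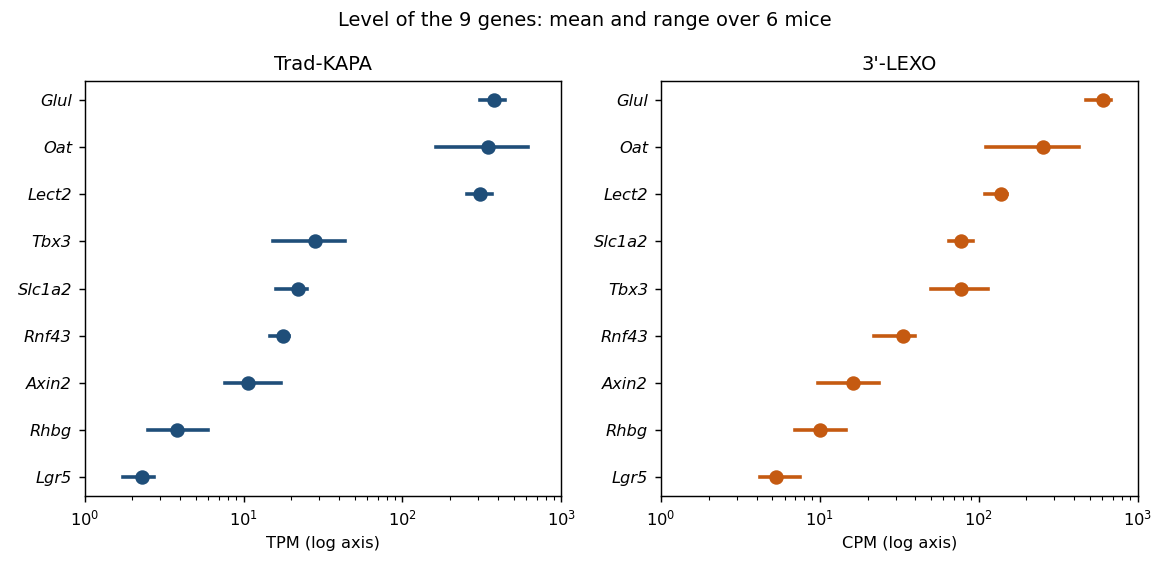
Level of each gene as the mean (point) and the range (line) over 6 mice of both diets, in TPM for Trad-KAPA and CPM for 3'-LEXO, on log axes, ordered by the mean. Glul, Oat and Lect2 are the 3 highest in both kits and Lgr5 is the lowest, at 2.30 TPM (per merged exon length) and 5.31 CPM.

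The share of the library that a gene received differed between kits. On the CPM scale, without length, 7 of the 9 genes were called in the comparison of 3'-LEXO with Trad-KAPA, 3 higher and 4 lower, where 38.8% of all genes were called higher and 37.6% lower. Rhbg, with 1937 bp of merged exons, was 3.6-fold higher in 3'-LEXO, with a mean log2 ratio of 1.85 ± 0.21 (SD, n = 6 mice) and an adjusted p of 1.1e-06 by edgeR. Lect2 (919 bp) was 1.28-fold higher and Glul (3323 bp) 1.26-fold higher, in 6 of 6 mice each, with adjusted p of 0.0139 and 0.0248 by edgeR. Lgr5 (10264 bp), Slc1a2 (13133 bp), Axin2 (5506 bp) and Rnf43 (6558 bp) were lower in 3'-LEXO in 6 of 6 mice each. Lgr5 was lowered most, 1.72-fold in the mean ratio, with an adjusted p of 0.00105 by edgeR, and the other 3 were lowered 1.36-fold to 1.42-fold. Oat (2360 bp) was 1.23-fold lower with an adjusted p of 0.0878, and Tbx3 (6624 bp) was 1.12-fold higher with an adjusted p of 0.553, so that edgeR called neither. With the mouse as a block, edgeR called both, at adjusted p of 0.000282 for Oat and 0.0333 for Tbx3, and it called Glul and Lect2 at 8.23e-06 and 2.09e-05. In the fit without the block, Glul was not called without control mouse 2 or 3 or iron-loaded mouse 2 or 3 (adjusted p 0.0613 to 0.1), and Lect2 without control mouse 1 or 2 or iron-loaded mouse 2 (adjusted p 0.0667 to 0.0979), while Oat was called without control mouse 2 or iron-loaded mouse 1 (0.029 and 0.0315). Scaled per kilobase in Trad-KAPA, the direction turned for Slc1a2, Axin2, Lgr5, Rnf43 and Lect2. With that scaling 8303 of 11369 called genes were higher in 3'-LEXO, against 5585 of 10999 in the main fit.

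**Figure D4:**
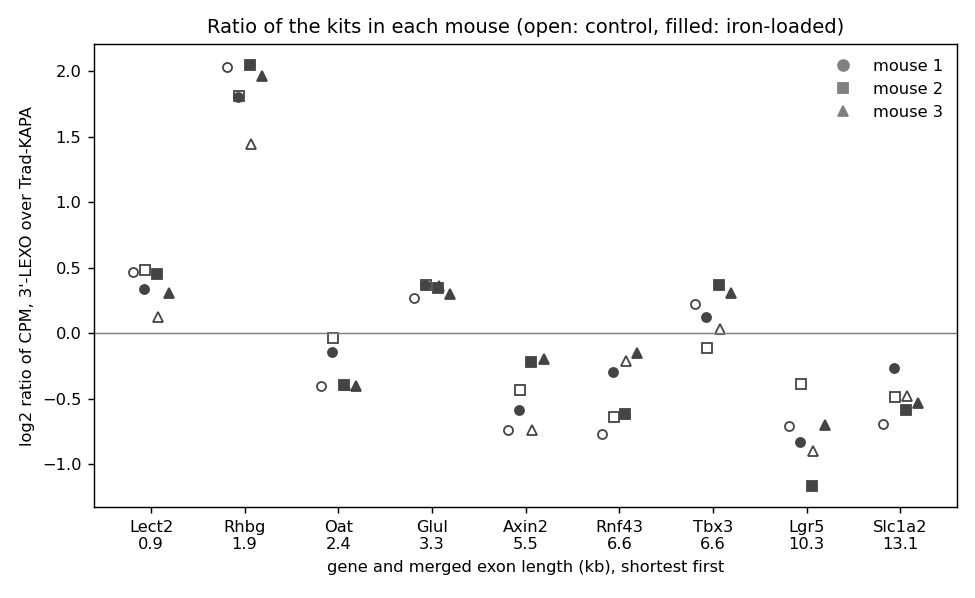
Log2 ratio of CPM in 3'-LEXO over Trad-KAPA for each gene in each of 6 mice, with the genes ordered by merged exon length in kb (open symbols control, filled iron-loaded, shape for the mouse). Rhbg lies between 1.44 and 2.05 in all mice, and Axin2, Rnf43, Lgr5 and Slc1a2 lie below 0 in all mice.

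The rest of the Wnt pathway was described from a list of 93 ligands, receptors, intracellular components, inhibitors and targets, of which 86 were in the table. In Trad-KAPA 59 were tested, 8 rose, 4 fell and 47 did not pass the test, with a median log2 fold change of 0.01 against 0.02 over all genes. In 3'-LEXO 57 were tested, 4 rose, 3 fell and 50 did not pass, with a median of 0.02 against 0.01. The called shares were 13.6% higher and 6.78% lower in Trad-KAPA and 7.02% higher and 5.26% lower in 3'-LEXO, to be read against the shares of all genes given above. The lists here and below were chosen with earlier results of these data known, so their called shares are a description and not a test. The calls depended on single libraries, as 6 to 15 genes were called in Trad-KAPA and 0 to 6 in 3'-LEXO when 1 library was left out.

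Among 9 tested ligands and R-spondins, 2 rose and 1 fell in Trad-KAPA and none was called in 3'-LEXO. The Trad-KAPA shares were 22.2% higher and 11.1% lower, against 8.77% and 8.37% of all genes. With 3'-LEXO the shares of all genes were 3.17% and 2.92%. Wnt2, a ligand made by liver endothelium, stood at 3.02, 3.28 and 2.96 CPM in the control mice and at 6.43, 6.08 and 6.76 CPM in the iron-loaded mice in Trad-KAPA (log2 fold change 0.99, adjusted p = 0.00876, edgeR). In 3'-LEXO its log2 fold change was 0.74 (adjusted p = 0.0879, edgeR), also without overlap between the diets. Wnt9b, made by central vein endothelium, gave 1.14 in Trad-KAPA (adjusted p = 0.0179) and 0.75 in 3'-LEXO (adjusted p = 0.25) by edgeR, and Wnt5a, a ligand of non-canonical signaling, gave -0.82 in both (adjusted p = 0.0412 and 0.0658). Wnt9b lost its call without control mouse 1 or 3 or iron-loaded mouse 3, and Wnt5a without control mouse 2 or 3 or iron-loaded mouse 2 or 3.

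Among 12 tested receptors, Fzd7 fell in both kits, by 0.79 on the log2 scale in Trad-KAPA (adjusted p = 0.00613) and by 1.08 in 3'-LEXO (adjusted p = 0.0408, edgeR). Its call held without any 1 library in Trad-KAPA, but in 3'-LEXO it held in 1 of 6 such fits, that without iron-loaded mouse 3. Fzd8, also a Frizzled receptor, gave -0.95 (adjusted p = 0.0457) and -0.88 (adjusted p = 0.101) by edgeR, and its Trad-KAPA call held in 1 of 6 such fits, that without iron-loaded mouse 1.

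Of the intracellular components, Tle2, a co-repressor that binds TCF factors, fell by 1.34 on the log2 scale in Trad-KAPA (adjusted p = 0.00276, called without any 1 library) and gave -0.57 in 3'-LEXO (adjusted p = 0.28, edgeR). Bcl9, a co-activator of beta-catenin, and Tcf7l1, a TCF factor, fell in 3'-LEXO, by 0.87 and 0.63 (adjusted p = 0.0349 and 0.0354), and gave -0.36 and -0.44 in Trad-KAPA (adjusted p = 0.0922 and 0.0809, edgeR). Both 3'-LEXO calls held in 1 of 6 fits with 1 library left out, that without iron-loaded mouse 1. In all, 4 of 27 tested components rose (14.8%, against 8.77% of all genes) and 1 fell (3.7%, against 8.37%) in Trad-KAPA. In 3'-LEXO none rose and 2 of 25 fell (8.0%, against 2.92% of all genes). The 4 that rose are not named, as their changes were smaller than those of the genes named above.

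The inhibitors and other targets, 11 of which were tested, had the highest medians of the Wnt lists, 0.60 with Trad-KAPA and 0.54 with 3'-LEXO. Trad-KAPA called 2 of the 11 higher (18.2%, against 8.77% of all genes), and 9 did not pass the test. 3'-LEXO called 4 of the 11 higher (36.4%, against 3.17% of all genes), and 7 did not pass. Because the list was chosen with earlier results of these data known, these shares only describe it. None was called lower. By Trad-KAPA 3 of the 11 had a negative log2 fold change, and by 3'-LEXO 4 had. Myc, a proliferation factor, stood at 3.38, 3.82 and 2.10 CPM on the control diet and at 42.6, 12.3 and 11.6 CPM on the iron-loaded diet in Trad-KAPA, highest in iron-loaded mouse 1. Its log2 fold change was 2.74 (adjusted p = 0.0127) in Trad-KAPA and 2.18 (adjusted p = 0.0175) in 3'-LEXO by edgeR, and without iron-loaded mouse 1 it was 1.90 and 1.56, still called. It was not called without control mouse 3 in Trad-KAPA or without any 1 control mouse in 3'-LEXO. Tnfrsf19, a receptor gene induced by Wnt, rose by 1.35 in Trad-KAPA (adjusted p = 0.00923) and 1.14 in 3'-LEXO (adjusted p = 0.023) by edgeR. Its 3'-LEXO call was lost without control mouse 1 or 3 or iron-loaded mouse 3. Wif1, a secreted Wnt inhibitor, rose by 1.30 in 3'-LEXO (adjusted p = 0.0153) and gave 0.70 in Trad-KAPA (adjusted p = 0.127), and Cd44, an adhesion receptor, rose by 1.01 in 3'-LEXO (adjusted p = 0.0348) and gave 0.93 in Trad-KAPA (adjusted p = 0.068) by edgeR. Wif1 lost its call without control mouse 1 or 3 or iron-loaded mouse 3, and Cd44 kept it without iron-loaded mouse 1 alone. None of 130 tested genes of the lists used here had a called difference of its diet effect between the kits. The adjusted p was 1.0 for each by edgeR, in the fit that did not pair the kits by mouse. With the mouse as a block, edgeR also called none. There, unadjusted confidence intervals of 3'-LEXO minus Trad-KAPA excluded 0 for Tle2 (0.20 to 1.37) and Bcl9 (-0.91 to -0.13). Those of the other Wnt pathway genes named with a call in 1 kit included 0. A call in 1 kit only thus does not show that the kits differ. A missing call does not show that they are alike.

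**Figure D5:**
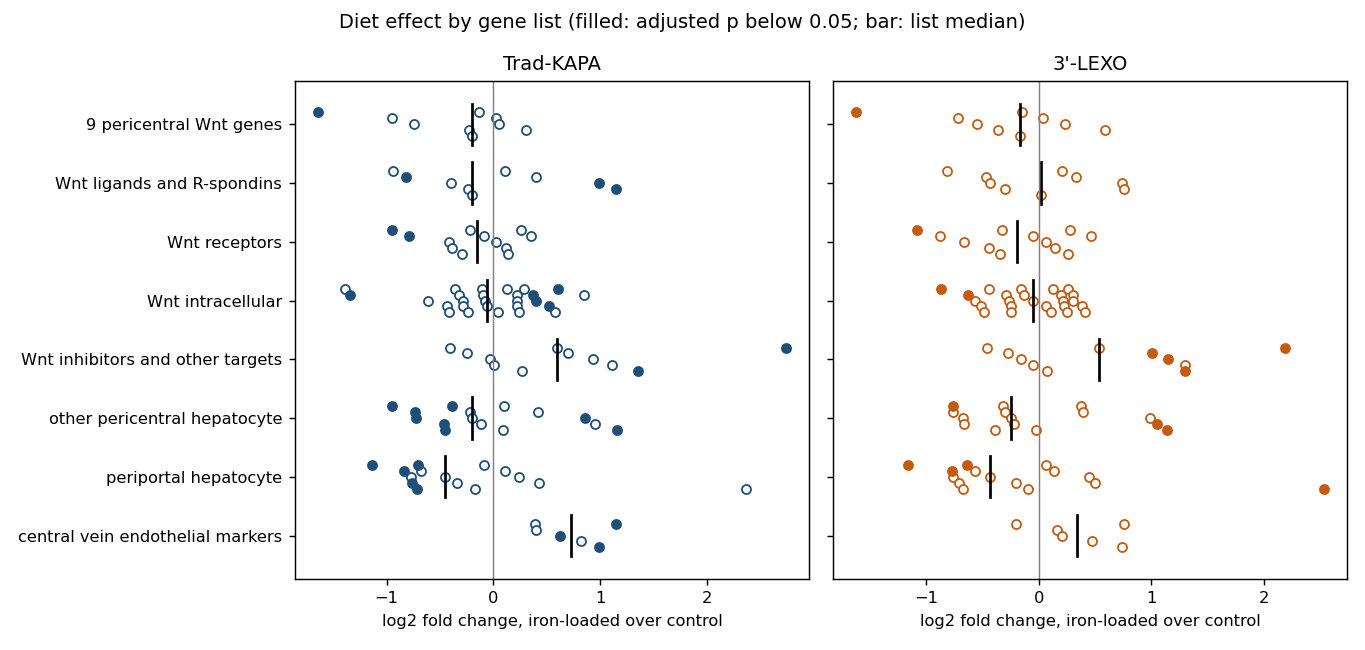
Log2 fold change of iron-loaded over control mice for the tested genes of each list in each kit, filled where the adjusted p was below 0.05, with a bar at the list median. Oat is the leftmost gene of the 9, and the periportal list has medians of -0.46 and -0.43.

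Other genes of pericentral hepatocytes moved in both directions. Of 15 listed and tested, 2 rose and 6 fell in Trad-KAPA and 2 rose and 1 fell in 3'-LEXO, with medians of -0.20 and -0.25. These were 13.3% higher and 40.0% lower in Trad-KAPA, against 8.77% and 8.37% of all genes, and 13.3% higher and 6.67% lower in 3'-LEXO, against 3.17% and 2.92%. This list and the periportal list below were also chosen with earlier results of these data known, so their shares are a description. Cyp1a2, a cytochrome P450 of drug metabolism, stood at 413, 318 and 319 CPM in the control mice and at 246, 208 and 210 CPM in the iron-loaded mice in Trad-KAPA (log2 fold change -0.73, adjusted p = 0.0106, edgeR). In 3'-LEXO it was -0.76 (adjusted p = 0.033, edgeR), a call that held without iron-loaded mouse 1 or 2 only. Gstm3, a glutathione transferase, rose by 1.15 and 1.14 (adjusted p = 0.00329 and 0.0158), and Slc13a3, a dicarboxylate transporter, by 0.86 and 1.05 (adjusted p = 0.0349 and 0.0203, edgeR). Gstm3 was called without any 1 library in Trad-KAPA but not without control mouse 1 or 3 in 3'-LEXO. Slc13a3 was called in 1 of 6 such fits in Trad-KAPA (without iron-loaded mouse 1) and 2 of 6 in 3'-LEXO (without iron-loaded mouse 1 or 2). Rgn and Aldh3a2 fell in Trad-KAPA, by 0.95 and 0.72 (adjusted p = 0.0474 and 0.0114), and gave -0.76 and -0.67 in 3'-LEXO (adjusted p = 0.128 and 0.054, edgeR). In Trad-KAPA, Aldh3a2, an aldehyde dehydrogenase, was called without any 1 library, and Rgn without iron-loaded mouse 1 only.

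Periportal hepatocyte genes, which mark the opposite end of the lobule, were set beside them. Of 15 tested, 5 fell and none rose in Trad-KAPA, and 3 fell and 1 rose in 3'-LEXO, with medians of -0.46 and -0.43. Trad-KAPA called 33.3% lower and 0.0% higher, against 8.37% and 8.77% of all genes, and 3'-LEXO called 20.0% lower and 6.67% higher, against 2.92% and 3.17%. Gls2, the liver glutaminase that releases ammonia from glutamine, stood at 554, 329 and 443 CPM in the control mice and at 167, 225 and 237 CPM in the iron-loaded mice in Trad-KAPA. Its log2 fold change was -1.14 (adjusted p = 0.0138) in Trad-KAPA and -1.16 (adjusted p = 0.0214) in 3'-LEXO by edgeR. Ass1, an enzyme of the urea cycle, gave -0.71 and -0.63 (adjusted p = 0.0346 and 0.0395), and Ctsc, a lysosomal protease, -0.84 and -0.77 (adjusted p = 0.0235 and 0.0267, edgeR). Cyp2f2, a cytochrome P450, and Otc, an enzyme of the urea cycle, fell in Trad-KAPA by 0.76 and 0.70 (adjusted p = 0.0292 and 0.0336), and gave -0.76 and -0.71 in 3'-LEXO (adjusted p = 0.056 and 0.0594, edgeR). Hamp, used above as a check of the diets, was also on this list and was its 1 gene called higher in 3'-LEXO. Its place in the lobule was not tested here, and the authors cite earlier reports that it increases with iron loading. Hamp rose in 3'-LEXO by 2.53 (adjusted p = 0.0425) and gave 2.36 in Trad-KAPA (adjusted p = 0.0667, edgeR), and without control mouse 1 it was called in both kits, at 4.06 in Trad-KAPA and 3.90 in 3'-LEXO. Its 3'-LEXO call was lost without control mouse 2 or 3 or iron-loaded mouse 2 or 3, and the lowest log2 fold changes with 1 library left out were 2.12 in 3'-LEXO and 1.88 in Trad-KAPA. Gls2 lost its call without control mouse 3 in Trad-KAPA, and without control mouse 1 or 3 or iron-loaded mouse 3 in 3'-LEXO. Ctsc lost it without any 1 control mouse in Trad-KAPA and kept it without iron-loaded mouse 1 or 2 only in 3'-LEXO. The Trad-KAPA calls of Ass1 and Cyp2f2 held without control mouse 2 or iron-loaded mouse 1 only, and those of Otc in Trad-KAPA and Ass1 in 3'-LEXO without iron-loaded mouse 1 only. Leaving out 1 library left 1 to 5 calls on this list in Trad-KAPA and 0 to 4 in 3'-LEXO.

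Summed marker levels of liver cells were compared by their ranges, and the sums were not tested. For some cell types the ranges of the diets overlapped, and for others they did not. The 6 hepatocyte markers summed to 133285 to 145620 CPM in control and 103529 to 147949 CPM in iron-loaded mice in Trad-KAPA, and to 53387 to 68597 CPM and 41486 to 63826 CPM in 3'-LEXO, which overlapped. The 6 central vein endothelial markers (Rspo3, Wnt9b, Wnt2, Thbd, Cdh13 and Kit) summed to 22.8 to 31.6 CPM in control and 43.8 to 47.4 CPM in iron-loaded mice in Trad-KAPA, and to 44.2 to 47.6 and 55.8 to 81.4 CPM in 3'-LEXO, with no overlap. The 6 Kupffer cell markers summed to 298 to 477 CPM and 539 to 586 CPM in Trad-KAPA, and to 824 to 1073 and 1083 to 1324 CPM in 3'-LEXO, also with no overlap. With 3'-LEXO the highest control sum, 1073 CPM, lay close to the lowest iron-loaded sum, 1083 CPM. Among all single genes tested, the diets also did not overlap for 41.2% with Trad-KAPA and 31.3% with 3'-LEXO. Wnt2 and Wnt9b are themselves among the 6 central vein markers, so that sum is not separate from their own change. Rspo3 is likewise on the list of ligands and R-spondins. Of these 6 markers, 3 were called higher in Trad-KAPA (50.0%, against 8.77% of all genes) and none in 3'-LEXO (against 3.17%). The part of the shifts in marker sums in the diet effect on Oat was not tested. The sums of sinusoidal endothelial, stellate and red cell markers overlapped between the diets in Trad-KAPA, and those of stellate and red cell markers in 3'-LEXO. The sinusoidal endothelial markers summed to 299 to 373 CPM in control and 254 to 281 CPM in iron-loaded mice in 3'-LEXO.

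The genes whose pattern was most like that of Glul were found by Pearson's r over 12 log2(CPM + 1) values, each kit centered on its mean, among 6719 genes with at least 10 CPM on average in both kits. The 12 values come from 6 mice measured with both kits, so the points share animals and libraries, and r is given as a description. Inhba, the inhibin beta A subunit, had the highest r, 0.96. In Trad-KAPA it stood at 10.4, 29.7 and 27.5 CPM in the control mice and at 15.6, 28.3 and 33.3 CPM in the iron-loaded mice, lowest in mouse 1 of both diets, as Glul was. Osbpl8 (r = 0.91), Ppp1r10 (0.91), Ugcg (0.90) and Gbp7 (0.89) came next. None of the 5 was called for diet in either kit, with adjusted p from 0.307 to 0.999 by edgeR. Among the other 8 genes, Slc1a2 was nearest to Glul at r = 0.62 (place 176 of the genes), followed by Rnf43 at 0.59 (place 214) and Lect2 at 0.43 (place 526). Axin2 stood at 0.07, Tbx3 at -0.16 and Oat at -0.43 (place 5876), and Rhbg and Lgr5 were below 10 CPM in at least 1 kit. The values were not centered on diet, so differences between the diets, such as that of Oat, are part of r.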

How the data were processed

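Liver poly(A) RNA of 3 control and 3 iron-loaded mice was sequenced with both kits as 50 bp single-end reads. The authors mapped reads with STAR 2.5.3a to GRCm38 and deposited raw counts per gene from uniquely mapped exonic reads. Duplicates were kept, and the counting program and its strand setting are not given in the sources used here. Symbols, positions and merged exon lengths came from GENCODE M21, which matched 26940 of 27022 identifiers. CPM was taken from library totals, and TPM from counts per merged exon length.

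The diets were compared within each kit with edgeR 4.0.16 (quasi-likelihood test, TMM, filterByExpr, Benjamini-Hochberg over all genes tested, 0.05), on 13151 (Trad-KAPA) and 13301 (3'-LEXO) genes. Difference of the diet effect and of the level between kits came from 1 fit to all 12 libraries with 4 groups (14384 genes). SE was the log2 fold change divided by the root of F. Each fit was tested on simulated counts. DESeq2 1.42.0, other scalings and filters, draws of 10000000 counts, blocks and leaving out each mouse were alternatives, and summing iron-loaded mice 2 and 3 was added after seeing the data.

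A mouse has the same number with either kit. Deviations from group means (10326 genes) correlated between kits at 0.444 to 0.770 for the same mouse, but iron-loaded mouse 2 correlated with iron-loaded mouse 3 (0.592) more than with itself (0.522). Numbers do not pair mice across diets (-0.168 to 0.100).

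The 9 genes and the gene lists were chosen with earlier results of these data known. All 9 were named. From each list, genes called in both kits and the 3 with the largest change among those called in 1 kit were named, as were the 5 most like Glul, except that some items are not reported here. Confidence intervals cover the spread between 3 mice per diet.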

Additional observations from a re-analysis of the deposited data

How the results depend on the processing

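Oat was called in both kits under all 15 alternatives of each, with a log2 fold change from -1.84 to -1.45 in Trad-KAPA (adjusted p from 5.69e-13 to 0.0172) and from -1.82 to -1.49 in 3'-LEXO (5.41e-15 to 0.0179). Tbx3 was called under 6 of 15 alternatives in Trad-KAPA and 3 of 15 in 3'-LEXO, with adjusted p from 0.0014 to 0.183 and from 0.00119 to 0.266, and the other 7 genes under none. The number of the 9 genes called for diet (1 in each kit) was thus 2 in Trad-KAPA with DESeq2, upper quartile scaling, no filter or all 12 libraries, and 2 in 3'-LEXO with DESeq2 or no filter. Leaving out 1 library gave 1 to 2 in each kit. No difference of the diet effect between kits was called for the 9 genes under any of its 11 alternatives.

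The lists depended on the setting, and the cause was not tested. In Trad-KAPA, leaving out 1 library gave 6 to 15 Wnt pathway genes (12), 3 to 8 other pericentral genes (8) and 1 to 5 periportal genes (5). There, no filter gave 8 periportal genes, all 12 libraries gave 5 pericentral genes, and summing iron-loaded mice 2 and 3 gave 3 pericentral and 2 periportal genes. In 3'-LEXO, leaving out 1 library gave 0 to 6 Wnt pathway genes (7), 0 to 4 other pericentral genes (3) and 0 to 4 periportal genes (4). The 3 lists fell to 0 without control mouse 3, where 15, 6 and 8 genes had an unadjusted p under 0.05 by edgeR. DESeq2 gave 5 pericentral and 7 periportal genes, no filter gave 12 Wnt pathway, 7 pericentral and 8 periportal genes, all 12 libraries gave 5 pericentral genes, and the summed mice gave 4, 1 and 1. The fit with the replicate number as a block gave 3 Wnt pathway and 2 periportal genes in 3'-LEXO, and kept 1 of the 9 genes called in each kit. Over all genes, Trad-KAPA called 2255 (841 to 2866 across alternatives) and 3'-LEXO 811 (199 to 2040).

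In the comparison of levels between kits, scaling per kilobase turned the log2 difference of 3'-LEXO minus Trad-KAPA to 1.82 for Slc1a2, 0.57 for Axin2, 1.20 for Lgr5, 0.89 for Rnf43 and -1.15 for Lect2. That setting divided Trad-KAPA counts by merged exon length and did not use TMM. Most calls over all genes were then higher in 3'-LEXO (8303 of 11369). Between 5 and 9 of the 9 genes were called across the alternatives of this comparison.

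The lowest counts in single libraries were 25 for Rhbg and 47 for Lgr5. With 3 mice from 1 cage per diet, a missed threshold does not show that a gene was unaffected.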

Other observations

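Some marker genes of other liver cells, named only by their sums in the report, were called for diet by edgeR, while others were not. Trad-KAPA called 2 of 6 Kupffer, 1 of 6 sinusoidal endothelial, 1 of 6 stellate and 1 of 3 tested cholangiocyte markers, all higher. 3'-LEXO called 1 of 6 Kupffer and 1 of 3 cholangiocyte markers higher, and no stellate marker. Of 6 sinusoidal endothelial markers it called 1 higher and 1 lower, and 5 had a negative log2 fold change. The shares of all genes called higher were 8.77% with Trad-KAPA and 3.17% with 3'-LEXO. Marco, a scavenger receptor of macrophages, rose in both kits, by 3.10 on the log2 scale in Trad-KAPA (adjusted p = 0.00143) and 2.82 in 3'-LEXO (adjusted p = 0.00233, edgeR), and its call held without any 1 library. Vsig4, a complement receptor of Kupffer cells, rose by 0.68 in Trad-KAPA (adjusted p = 0.0102) and gave 0.19 in 3'-LEXO (adjusted p = 0.416, edgeR). Lyve1, a hyaluronan receptor of sinusoidal and lymphatic endothelium, rose by 1.77 (adjusted p = 0.00374) and 1.16 (adjusted p = 0.0435, edgeR), while Stab2, a scavenger receptor of the same endothelium, gave -0.15 in Trad-KAPA (adjusted p = 0.538) and fell by 0.60 in 3'-LEXO (adjusted p = 0.0307, edgeR).

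Spp1, which encodes osteopontin, rose by 0.65 and 0.70 (adjusted p = 0.0106 and 0.0225, edgeR). Kit, a receptor tyrosine kinase on the central vein endothelial list, rose by 0.63 in Trad-KAPA (adjusted p = 0.0457) and gave 0.47 in 3'-LEXO (adjusted p = 0.245, edgeR). Hgf, the hepatocyte growth factor, rose by 0.81 in Trad-KAPA (adjusted p = 0.0283) and gave 0.11 in 3'-LEXO (adjusted p = 0.767, edgeR). In Trad-KAPA the calls of Lyve1, Vsig4 and Spp1 held without any 1 library, while that of Kit held without control mouse 2 or iron-loaded mouse 1 only and that of Hgf without control mouse 1 or iron-loaded mouse 1 only. In 3'-LEXO the call of Lyve1 held without iron-loaded mouse 2 or 3 only, that of Spp1 without iron-loaded mouse 1 or 2 only, and that of Stab2 without iron-loaded mouse 1 only. None of these genes had a called difference of its diet effect between kits, with or without the mouse as a block. With the block, unadjusted confidence intervals of 3'-LEXO minus Trad-KAPA lay below 0 for Vsig4 (-0.76 to -0.24) and Stab2 (-0.74 to -0.15). The same held for Hgf (-1.21 to -0.18) and Lyve1 (-1.26 to -0.02). Those of Marco, Spp1 and Kit included 0. The cholangiocyte markers summed to 23.7 to 26.5 CPM in control and 33.5 to 39.0 CPM in iron-loaded mice in Trad-KAPA, and the lymphocyte markers to 3.83 to 8.64 and 4.57 to 6.83 CPM. No lymphocyte or red cell marker was called in either kit, and the red cell markers ranged from 20.3 to 151 CPM in control and from 16.4 to 28.9 CPM in iron-loaded mice in Trad-KAPA.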
